A study of Caenorhabditis elegans with 23 samples.

Results

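Transcript levels of 10 muscle filament genes were followed in 19 whole-worm RNA libraries of young adult C. elegans hermaphrodites. The genes were taken by name and cover the myosin heavy chains unc-54, myo-3, myo-1 and myo-2, the paramyosin gene unc-15, the myosin light chains mlc-1, mlc-2 and mlc-3, the actin gene act-4 and the troponin I gene unc-27. They are 10 of 46461 annotated genes that could be placed on the 1 kb windows of the deposited table, and of the 17503 whose mean reached 1 RPKM, a minimum that all 10 passed. The value of a gene is the mean RPKM (reads per kilobase, scaled to the reads of the library) of the windows that overlap it by at least 500 bp.

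The study asked how worms that had lost HRDE-1, a germline Argonaute protein of heritable gene silencing, behave once the gene is repaired, and whether the methyltransferase genes set-32, met-2 and set-25 matter for this. In 9 repaired libraries the hrde-1(tm1200) mutation had been put right, written hrde-1(+R), and the labels give the generation of the worms as F3 to F8. These were hrde-1(+R) alone at F4 and F5, with set-32(ok1457) at F5 and F8, with set-32(red11) at F4 and F5, with met-2(n4256) set-25(n5021) at F3 and F5, and with set-32(red11) and met-2 set-25 together at F5. In 5 libraries hrde-1 carried tm1200, alone, with set-32(ok1457), with set-32(red11), with met-2 set-25, or with red11 and met-2 set-25. The remaining 5 never carried a mutation of hrde-1: the wild type N2, set-32(ok1457), set-32(red11), met-2 set-25, and set-32(ok1457) with met-2 set-25. Each genotype and generation had 1 library, so strains that share a mutation served as replicates of it. Ribosomal RNA had been removed with RNase H and no poly(A) selection was made. Nothing in the labels says that cultures were separate, or how the generations of a genotype are related, so p-values measure only the spread between these libraries.

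Nematode striated muscle lines the body wall, and a separate set of muscle cells pumps food through the pharynx. In both, thick filaments of myosin wound on a core of paramyosin pull on thin filaments of actin, and troponin on the thin filament lets calcium switch contraction on. Body wall muscle builds its thick filaments from the heavy chains UNC-54 and MYO-3, with MYO-3 at the filament centre, while pharynx muscle uses MYO-1 and MYO-2. Whole worms hold every tissue, so fewer muscle cells and less RNA per muscle cell cannot be told apart in these values.

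The libraries held 458689 to 1152825 reads in the RPKM denominator, as read from the step between values, so that 1 read in a window was worth 2.18 to 0.867 RPKM. The mutated genes followed the labels in their medians. The hrde-1 gene had a median of 192 RPKM in the 9 repaired libraries and 92.5 in the 5 tm1200 ones, against 182 in the 5 never-mutated ones. The met-2 gene stood at 6.54 to 9.87 RPKM in 7 met-2 set-25 libraries and at 25.8 to 47.4 in the other 12, set-25 had medians of 7.92 RPKM in the mutants and 13.9 in the others, and set-32 had medians of 8.33 RPKM with ok1457, 4.49 with red11 and 13.7 in set-32(+) libraries. Single libraries overlapped for hrde-1 (up to 139 RPKM with tm1200, from 125 never mutated) and set-25 (up to 11.65 in mutants, from 10.09 in the others). For set-32, ok1457 reached 11.2 RPKM and red11 6.5, where set-32(+) libraries began at 9.11. In 4 libraries, set-32(ok1457) with and without tm1200, met-2 set-25 hrde-1(+R) F5 and hrde-1(+R) F4, 6 cuticle genes (rol-6, dpy-5, dpy-7, sqt-3, bli-1 and col-10) summed to 321 to 482 RPKM, against 16 to 134 in the other 15. In each comparison below, the median of the 10 genes is given with and without these 4 libraries.

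The signal followed the gene models. The authors' build is not given in the sources used here, and positions are those of the deposited windows read with the WBcel235 annotation. Of 201 segments of 500 windows, 198 matched the exon density of that annotation best with no shift, including the segments of all 10 genes. On chromosome I lie unc-54 (14855901 to 14863482, minus strand), myo-1 (7258946 to 7267057, minus) and unc-15 (7376604 to 7383197, minus). On chromosome X lie myo-2 (12468061 to 12475348, plus), mlc-1 (17459210 to 17460778, plus), mlc-2 (17455792 to 17456586, minus), act-4 (4960621 to 4964413, plus) and unc-27 (8789456 to 8790621, plus). The myo-3 gene lies on V (12226817 to 12234343, minus) and mlc-3 on III (5565025 to 5567382, plus). The mlc-1 and mlc-2 genes are near neighbours on opposite strands.

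Along unc-54 the 5 windows that are 920 to 1000 bp exon averaged 299 to 372 RPKM, the window of the first introns, with 296 bp of exon, averaged 58.8 RPKM, and the first window upstream of the gene averaged 0.061 RPKM. The edge of the gene was therefore sharp in the data. In myo-3 the exon-rich windows averaged 25.4 to 38.1 RPKM and a window near the 5′ end, with 95 bp of exon, averaged 1.47 RPKM. In act-4 a window with no exon base averaged 2.17 RPKM beside one of 889 exon bases at 463 RPKM. The signal of these genes thus lay mainly in windows that hold exons. Exons of another gene reach into windows of myo-1 (R06C7.12), myo-3 (K12F2.3, K12F2.4 and K12F2.5), mlc-1 (slc-17.1) and unc-27 (ZK721.6), and as the use of strand is not given in the sources used here, reads of these genes cannot be told apart there. Values of unc-15, mlc-3 and unc-27 were whole numbers of reads in every window and library, within 0.0061 RPKM. For the near-identical light chain genes the values were often parts of a read, with 10 of 19 values whole in mlc-2 and 30 of 38 in mlc-1. For act-4, one of several similar actin genes, 35 of 52 were whole. For the heavy chains 118 of 133 were whole in unc-54, 143 of 149 in myo-1, 127 of 133 in myo-2 and 124 of 127 in myo-3. The levels of genes with values that were not whole, mlc-2, act-4 and mlc-1 most and the heavy chains less, are uncertain in so far as reads were split among copies.

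**Figure D1:**
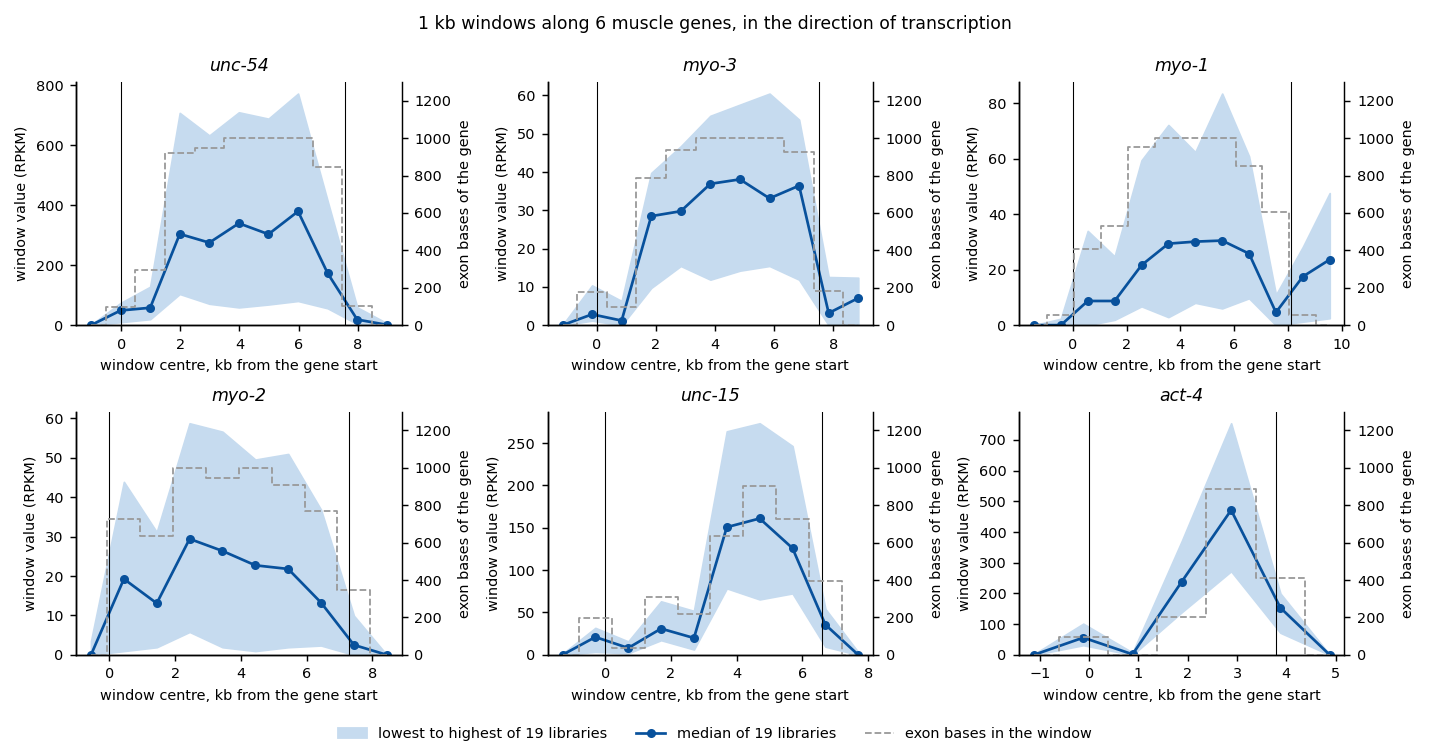
Values of 1 kb windows along 6 genes (left axis, RPKM, linear) against the distance of the window centre from the gene start in the direction of transcription (kb). The line is the median and the band the lowest to highest of 19 libraries; the dashed step is the number of exon bases of the gene in the window (right axis), and vertical lines mark the gene's ends. The band of unc-54 reaches from 59.3 to 709 RPKM in a window made wholly of exon. Windows outside the genes lie near 0, except those downstream of myo-1 (median 23.7 RPKM) and of myo-3 (median 7.08 RPKM).

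Per kilobase of exon, act-4 was the highest of the 10 at 563 ± 149 (exon-scaled RPKM, SD, n = 19), followed by mlc-2 at 426 ± 95.2, and act-4 exceeded mlc-2 in 17 of 19 libraries. Troponin I unc-27 (318 ± 80.5) and the major body wall heavy chain unc-54 (316 ± 167) came next and were not separated, with unc-27 higher in 11 of 19. The light chains mlc-3 (218 ± 66.3) and mlc-1 (205 ± 63.9) were not separated either, with mlc-3 higher in 12 of 19. Paramyosin unc-15 stood at 167 ± 63.9 and exceeded myo-3 in all 19 libraries. The remaining heavy chains were lowest, myo-3 at 34.4 ± 10.4, myo-1 at 30.1 ± 15.4 and myo-2 at 24.2 ± 13.4. The myo-1 value takes in an edge window with only 55 bp of its exon, which averaged 18.2 RPKM. The body wall heavy chain unc-54 thus stood well above the other heavy chains, and both pharynx chains lay below both body wall chains in their means.

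UNC-54 is the most abundant heavy chain of body wall muscle. In the repaired libraries unc-54 ran from 66.1 RPKM in set-32(ok1457); hrde-1(+R) F5 through a median of 153 to 386 RPKM in set-32(ok1457); hrde-1(+R) F8. In tm1200 libraries unc-54 stood at 356 (hrde-1(tm1200) alone), 169 (with ok1457), 226 (with red11), 305 (with met-2 set-25) and 431 RPKM (with red11 and met-2 set-25). In never-mutated libraries it stood at 577 (N2), 150 (ok1457), 397 (red11), 331 (met-2 set-25) and 467 RPKM (ok1457 with met-2 set-25). N2 was the highest and a repaired library the lowest, but the 3 states overlapped, and the never-mutated ok1457 library lay below all 5 tm1200 libraries.

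MYO-3 occupies the centre of the body wall thick filament. It ran from 13.3 RPKM in met-2 set-25 hrde-1(+R) F3 through a median of 24.0 to 41.4 RPKM in the repaired libraries. In tm1200 libraries myo-3 stood at 30.5 (alone), 23.7 (ok1457), 20.2 (red11), 30.2 (met-2 set-25) and 38.04 RPKM (red11 with met-2 set-25). In never-mutated libraries it stood at 37.0 (N2), 22.6 (ok1457), 35.1 (red11), 34.4 (met-2 set-25) and 40.6 RPKM (ok1457 with met-2 set-25). Its highest library was a repaired one, and the groups overlapped.

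MYO-1 and MYO-2 are the heavy chains of the pharynx. The myo-1 gene ran from 5.11 through a median of 12.4 to 33.5 RPKM in repaired libraries, from 14.2 through 20.9 to 32.1 RPKM in tm1200 libraries, and from 14.5 through 37.3 to 50.5 RPKM in never-mutated ones. The myo-2 gene ran from 2.50 through 11.9 to 30.4 RPKM in repaired libraries, from 18.2 through 22.8 to 33.5 RPKM in tm1200 libraries, and from 13.7 through 35.2 to 46.8 RPKM in never-mutated ones. Both were highest in N2 and lowest in set-32(ok1457); hrde-1(+R) F5. That lowest myo-2 value rested on 18 reads, with an exact Poisson 95% interval of 10.7 to 28.4, which covers counting error only, and it came from 1 of the deeper libraries, with 1028495 reads. In 6 of the 9 repaired libraries myo-2 lay between 2.50 and 12.5 RPKM, below all tm1200 and never-mutated libraries, while the other 3 lay within their range.

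**Figure D2:**
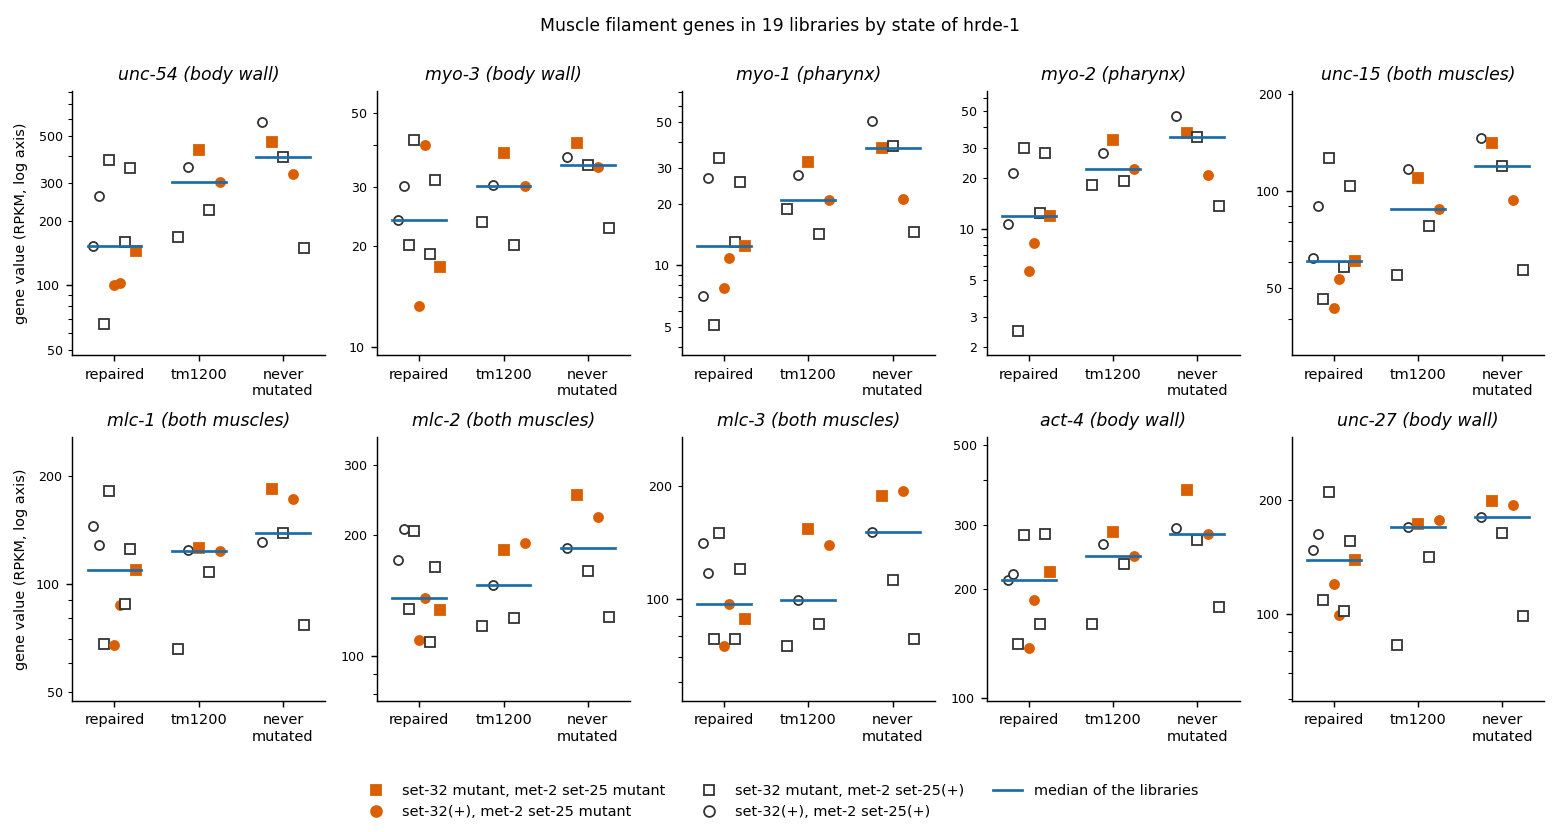
Gene values (RPKM, log axes) of the 10 genes in each of the 19 libraries, grouped as repaired (9), hrde-1(tm1200) (5) and never mutated (5). Squares are set-32 mutants and circles set-32(+), filled symbols are met-2 set-25 mutants, and the bar is the median of the libraries; the groups overlap in each of the 10 panels.

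Paramyosin, the rod protein of the thick filament core, is made in both muscles. Its gene unc-15 ran from 43.0 through 60.6 to 126 RPKM in repaired libraries, from 54.9 through 88.0 to 117 RPKM in tm1200 libraries and from 56.9 through 120 to 146 RPKM in never-mutated ones. The myosin light chains bind the neck of the heavy chain, mlc-1 and mlc-2 as near-identical regulatory chains and mlc-3 as the essential chain. The mlc-1 gene ran from 67.5 to 182 RPKM in repaired, from 65.9 to 126 RPKM in tm1200 and from 76.7 to 184 RPKM in never-mutated libraries. The mlc-2 gene ran from 108 to 207 RPKM in repaired, from 118.8 to 191 RPKM in tm1200 and from 125 to 252 RPKM in never-mutated libraries. For mlc-3 the ranges were 75.0 to 150 RPKM in repaired, 75.2 to 154 RPKM in tm1200 and 78.1 to 194 RPKM in never-mutated libraries. The lowest values of the 3 states were thus close to each other for each light chain, and the highest library was never mutated for all of them.

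On the thin filament, act-4 ran from 137 to 283 RPKM in repaired, from 160 to 287 RPKM in tm1200 and from 179 to 376 RPKM in never-mutated libraries. Troponin I, the inhibitory subunit of the calcium switch, is encoded for body wall muscle by unc-27, which ran from 99.3 to 209 RPKM in repaired, from 82.8 to 176 RPKM in tm1200 and from 98.9 to 198 RPKM in never-mutated libraries. These ranges were narrow compared with those of 3 of the heavy chains. From the lowest to the highest of 19 libraries the value changed 18.8-fold for myo-2, 9.90-fold for myo-1 and 8.73-fold for unc-54, but 3.13-fold for the fourth heavy chain, myo-3. It changed 3.40-fold for unc-15 and by 2.34-fold (mlc-2) to 2.79-fold (mlc-1) for the light chains, act-4 and unc-27. Behind these values stood 475 reads or more in each library for unc-54, 76 or more for myo-3, 28 or more for myo-1 and 18 or more for myo-2.

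The genes moved together from library to library. Over the 19 libraries, which differ in depth and share mutations, Pearson's r of log2(RPKM + 1) was 0.584 to 0.971 for the 45 pairs of these genes, with a median of 0.796. The closest pair was unc-54 with myo-2 (0.971), a body wall chain with a pharynx chain, then unc-54 with unc-15 (0.965), myo-1 with myo-2 (0.956) and mlc-2 with mlc-3 (0.948). The loosest was myo-3 with unc-27 (0.584), both of body wall muscle. The closest pair thus crossed from body wall to pharynx, and the loosest lay within the body wall.

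All 10 genes were above their own median in 4 libraries: N2, set-32(ok1457); met-2 set-25, tm1200 with red11 and met-2 set-25, and set-32(ok1457); hrde-1(+R) F8. In 7 libraries none was above its median: never-mutated ok1457, ok1457 with tm1200, red11 with tm1200, and among the repaired ones ok1457 F5, red11 F4, met-2 set-25 F3, and red11 with met-2 set-25 F5. These 7 cover all 3 states of hrde-1. Of the 4 libraries with high cuticle genes, both ok1457 ones are among the 7, and in hrde-1(+R) F4 and met-2 set-25 hrde-1(+R) F5 the number of genes above their median was 3 and 1. The median of the 10 log2 values relative to their own medians was -0.57 in never-mutated ok1457 and -0.56 in ok1457 with tm1200, and the part of the cuticle-gene difference in this was not tested.

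**Figure D3:**
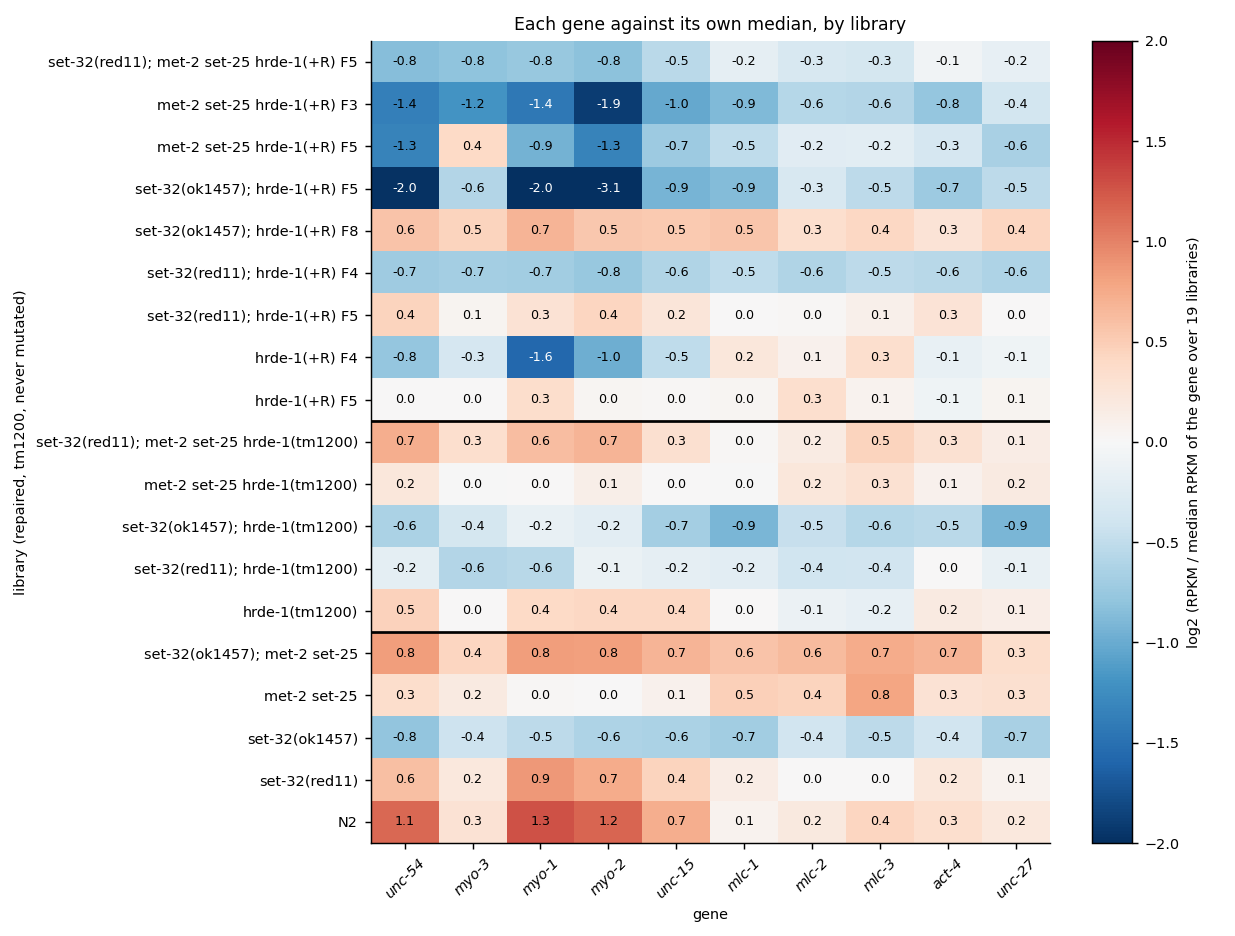
Each gene's value in each library as log2 of RPKM over that gene's median across the 19 libraries (printed number, and colour that stops at 2 and -2), with libraries as lines grouped from top to bottom as repaired, hrde-1(tm1200) and never mutated. Lines of one colour show libraries in which the 10 genes lie together above or below their medians; the deepest blue cells are unc-54, myo-1 and myo-2 in set-32(ok1457); hrde-1(+R) F5.

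The balance between heavy chains differed between libraries. The ratio of unc-54 to myo-3 gene values ran from 2.57 through 8.37 to 11.3 in repaired libraries, from 7.13 through 11.2 to 11.7 in tm1200 libraries and from 6.62 through 11.3 to 15.6 in never-mutated ones. Its extremes were met-2 set-25 hrde-1(+R) F5, where myo-3 was high at 39.97 RPKM and unc-54 low at 103, and N2. The ratio of myo-1 to myo-3 was 0.253 to 0.878 in repaired, 0.692 to 0.907 in tm1200 and 0.615 to 1.37 in never-mutated libraries, and was under 0.3 in the same 3 repaired libraries, ok1457 F5, met-2 set-25 F5 and hrde-1(+R) F4, whose unc-54 to myo-3 ratios were also the lowest. Of these, met-2 set-25 F5 and hrde-1(+R) F4 are among the 4 libraries of high cuticle genes. Low myo-1 values rest on few reads, as few as 28 in a library. Along unc-54 the upstream exon windows held 0.957 to 1.19 times the downstream ones in the 19 libraries. The same ratio ran from 0.889 to 1.48 for myo-2, from 0.658 to 1.24 for myo-3, from 0.706 to 1.44 for unc-15, with 1 window on each side, and from 0.527 to 1.22 for myo-1. It was thus steadiest over the libraries in unc-54 and least steady in myo-1. These 2 genes also differ in counting error. The fewest reads in a library were 475 for unc-54, with 3 windows on each side, and 28 for myo-1, with 2. The part of counting error in this was not tested. Within light chains, mlc-2 stood at 1.13 to 1.92 times mlc-1.

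**Figure D4:**
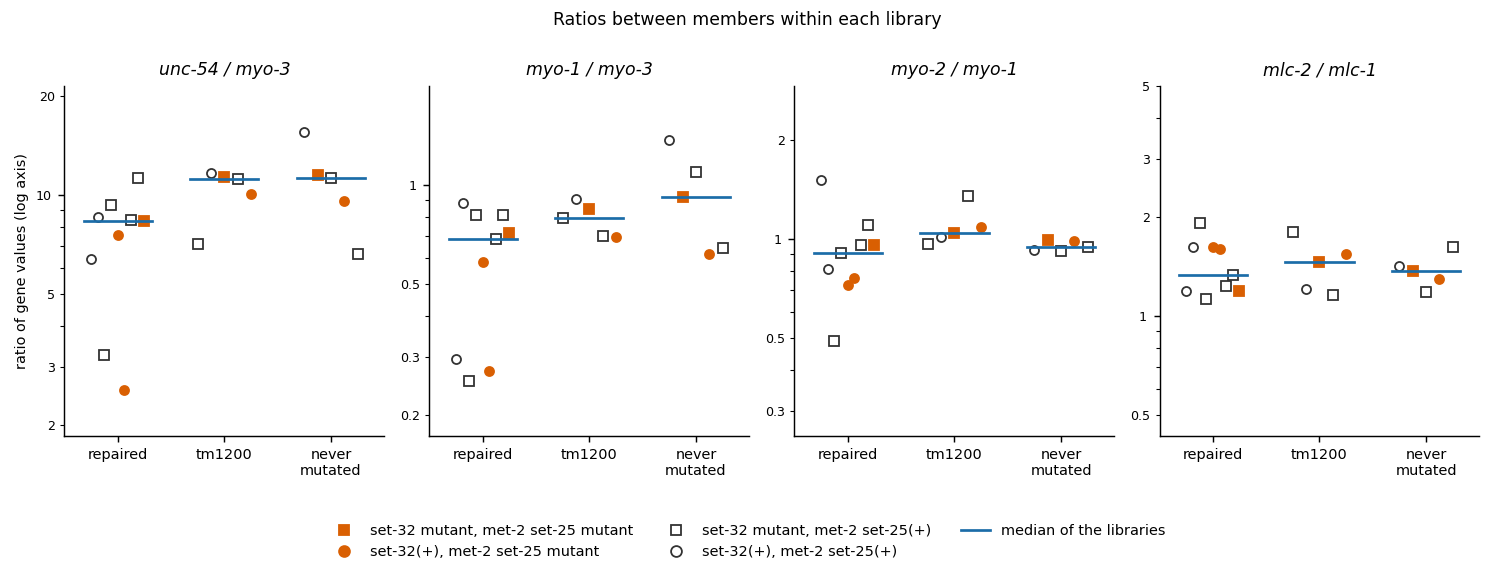
Ratios of gene values within each library (log axes) for 4 pairs of genes, grouped as repaired, hrde-1(tm1200) and never mutated, with symbols as in the plot of levels by state and the bar at the median. The unc-54 to myo-3 ratio lies between 2.57 and 15.6, and 3 repaired libraries have a myo-1 to myo-3 ratio under 0.3.

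The first comparison asked what hrde-1(tm1200) does, in the 10 libraries without repair, with set-32 and met-2 set-25 as further terms. Here and below, a gene is called at a limma adjusted p (Benjamini-Hochberg over 17503 genes) under 0.05 together with a log2 fold change of 1 or more in size, and fold changes are on the log2(RPKM + 1) scale, with their SE. None of the 10 genes was called, where 0.349% of all genes were. An unadjusted p under 0.05 was found for 1 of the 10, and for 1157 of all 17503 genes. The log2 fold changes of the heavy chains were -0.31 ± 0.32 for unc-54 (limma adjusted p = 0.930), -0.25 ± 0.19 for myo-3 (0.894), -0.42 ± 0.34 for myo-1 (0.896) and -0.24 ± 0.32 for myo-2 (0.947). They were -0.29 ± 0.27 for unc-15 (limma adjusted p = 0.920), -0.33 ± 0.21 for mlc-1 (0.834), -0.29 ± 0.14 for mlc-2 (0.753) and -0.36 ± 0.16 for mlc-3 (0.747). On the thin filament they were -0.22 ± 0.19 for act-4 (limma adjusted p = 0.900) and -0.18 ± 0.20 for unc-27 (0.932). All 10 were negative with a median of -0.29, against a median of -0.04 over all genes, of which 44.6% were positive. The genes move together, so here and below their signs and small p-values are not separate pieces of evidence. The groups overlapped for each gene. Overlap over all genes was not counted, here or below, so it does not set the 10 genes apart. The median was -0.17 without N2, -0.48 without never-mutated ok1457 and -0.355 without the 4 libraries of high cuticle genes. Without N2 the values were -0.081 for unc-54, -0.17 for myo-1 and 0.001 for myo-2, and without never-mutated ok1457 they were -0.58 for unc-54, -0.67 for myo-1 and -0.49 for myo-2. Of the body wall markers outside the 10 genes (mup-2, tnt-2, unc-22, unc-89, pat-10 and hlh-1) 0 of 6 were positive, with a median of -0.24 and sums of 499 to 715 RPKM in tm1200 and 513 to 864 in never-mutated libraries. Of the sperm genes 11 of 13 were positive, with a median of 0.24 and, over a list of 14, sums of 110 to 206 RPKM in tm1200 and 39.8 to 329 in never-mutated libraries. Of 8 oocyte genes 7 were positive, with a median of 0.11, and of 7 hypodermis and cuticle markers (the 6 above and col-19) 3 were, with a median of -0.12. Sums of those 7, given below, are mostly col-19, which averaged 716 RPKM over the 19 libraries, where the sums had a median of 893.5 RPKM. The part of these lists in the muscle values was not tested.

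Loss of met-2 and set-25 without repair gave positive values for all 10 genes, and the light chains had the largest. The essential light chain mlc-3 stood at 194, 188, 154 and 139 RPKM in the 4 met-2 set-25 mutants, against a lowest value of 75.2, a median of 92.9 and a highest of 151 RPKM in the 6 libraries with both genes intact. Only N2 among the intact libraries reached the range of the mutants. Its log2 fold change was 0.73 ± 0.17 (limma adjusted p = 0.360). Regulatory chain mlc-2 averaged 212 ± 31.5 RPKM in the mutants (SD, n = 4) and 145 ± 26.8 in the intact libraries (n = 6), a log2 fold change of 0.53 ± 0.14 (limma adjusted p = 0.428). For mlc-1 the means were 151 ± 31.2 RPKM in the mutants and 107 ± 29.9 in the intact libraries, with a log2 fold change of 0.48 ± 0.21 (limma adjusted p = 0.727).

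The other members had smaller values in this comparison. Log2 fold changes were 0.41 ± 0.20 for unc-27 (limma adjusted p = 0.773), 0.35 ± 0.19 for act-4 (0.804) and 0.20 ± 0.28 for unc-15 (0.956). The body wall heavy chains gave 0.37 ± 0.33 for unc-54 (limma adjusted p = 0.911) and 0.34 ± 0.20 for myo-3 (0.826), and the pharynx chains 0.10 ± 0.35 for myo-1 (0.982) and 0.14 ± 0.33 for myo-2 (0.977). None of the 10 was called by limma, where 0.00571% of all genes were. Of the 10, 3, the light chains, had an unadjusted p under 0.05, as had 1174 of all 17503 genes. The median was 0.36, against 0.02 over all genes. Without the 4 libraries of high cuticle genes it was 0.17, with 7 of 10 positive, and myo-1, myo-2 and unc-15 then had negative values, and it was 0.24 without the ok1457 met-2 set-25 library. The unc-54 value was 0.088 without red11 with met-2 set-25 and tm1200, and 0.62 without N2. All 7 hypodermis and cuticle markers also had positive values, summing to 935 to 1177 RPKM in the mutants and 534 to 917 in the intact libraries, and 12 of 13 sperm genes did, with a list of 14 summing to 156 to 329 RPKM in the mutants and 39.8 to 206 in the intact libraries. Their part in the muscle values was not tested.

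Loss of set-32 without repair, in 6 mutants and 4 set-32(+) libraries, gave log2 fold changes between -0.39 ± 0.33 for unc-54 and -0.12 ± 0.19 for act-4. None was called by limma, where 0% of all genes were, and the adjusted p was 1 for each. None of the 10 had an unadjusted p under 0.05, against 648 of all 17503 genes. In RPKM, unc-54 averaged 307 ± 141 (SD, n = 6) in the mutants and 392 ± 125 (n = 4) in set-32(+) libraries, so the difference was smaller than either SD. The median over the 10 was -0.22, against -0.03 over all genes. It was -0.01, with 4 of 10 positive, without the 4 libraries of high cuticle genes, which include ok1457 with and without tm1200. It was -0.07 without N2 and -0.35 without the never-mutated met-2 set-25 library. The unc-54 value was -0.056 without N2 and -0.60 without red11 with met-2 set-25 and tm1200. Of the sperm genes 1 of 13 was positive, with a median of -0.66 and sums of 39.8 to 170.5 RPKM in the set-32 mutants and 83.6 to 329 RPKM in set-32(+) libraries. Of the cuticle markers 6 of 7 were positive, with a median of 0.34 and sums of 534 to 1156 RPKM in the mutants and 725 to 1177 RPKM in set-32(+) libraries. These sums are mostly col-19, whereas the signs count each gene alike. The part of the sperm and cuticle lists in the muscle values was not tested.

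Loss of set-32 after repair was compared in 5 repaired mutants and 4 repaired set-32(+) libraries. Here 6 genes had positive and 4 negative values, from 0.24 ± 0.54 for myo-1 to -0.21 ± 0.21 for mlc-2, both with a limma adjusted p of 0.996. None of the 10 was called, where 0.0628% of all genes were. None had an unadjusted p under 0.05, against 874 of all 17503 genes. The values of myo-1 were 5.11, 33.5, 13.0, 25.5 and 12.4 RPKM in the mutants and 7.07, 26.6, 7.74 and 10.8 RPKM in set-32(+) libraries, so the spread within each group exceeded the difference. The median of 0.06 stood beside -0.01 over all genes, and was -0.03 without the 4 libraries of high cuticle genes, -0.12 without red11 with met-2 set-25 at F5 and 0.17 without ok1457 at F5. All 7 cuticle markers had negative values here, with a median of -1.42, 3 of 13 sperm genes had positive values, with a median of -0.27, and all 8 oocyte genes did, with a median of 0.17. The part of these lists was not tested.

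Loss of met-2 and set-25 after repair, in 3 mutants and 6 repaired libraries with both genes intact, gave negative values for all 10. For unc-54 the mutants stood at 100.3, 103 and 145 RPKM, against a lowest of 66.1, a median of 209.8 and a highest of 386 RPKM in the intact libraries. The log2 fold change of unc-54 was the lowest of the 10, -0.73 ± 0.51 (limma adjusted p = 0.911), and that of act-4 the nearest to 0, -0.19 ± 0.27 (0.943). None of the 10 was called, where 0.0514% of all genes (9) were, or 17 genes without red11 with met-2 set-25 at F5. None of the 10 had an unadjusted p under 0.05, against 996 of all 17503 genes. The median was -0.44, against 0.04 over all genes, of which 54.9% were positive, and it was -0.54 without the 4 libraries of high cuticle genes. Leaving out 1 library gave -0.43 (without red11 with met-2 set-25) to -0.037 (without met-2 set-25 at F3) for act-4. Of the sperm genes 1 of 13 was positive, with a median of -1.005 and sums of 81.4 to 92.4 RPKM in the mutants and 51.9 to 587 in the intact libraries. Of the cuticle markers 2 of 7 were positive, with a median of -0.62 and sums of 535 to 903 RPKM in the mutants and 354 to 1556 in the intact libraries. The body wall markers outside the 10 genes summed to 417 to 525.8 RPKM in the mutants and 418.5 to 872 in the intact libraries. The part of these lists was not tested.

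Repaired libraries were then set against tm1200 libraries, 9 against 5. None of the 10 genes was called by limma, where 0.251% of all genes were. An unadjusted p under 0.05 was found for 1 of the 10, and for 1342 of all 17503 genes. The pharynx heavy chain myo-2 had the lowest value, -0.97 ± 0.43 (limma adjusted p = 0.602), with means of 14.6 ± 9.85 RPKM (SD, n = 9) in repaired and 24.3 ± 6.42 (n = 5) in tm1200 libraries. The light chain mlc-1 had the value nearest 0, -0.01 ± 0.25 (limma adjusted p = 0.995), with means of 111.1 ± 37.98 RPKM in repaired and 109.5 ± 25.4 in tm1200 libraries. The other heavy chains had -0.79 ± 0.40 for unc-54, -0.69 ± 0.40 for myo-1 and -0.17 ± 0.25 for myo-3, and the other light chains -0.03 ± 0.19 for mlc-2 and -0.06 ± 0.22 for mlc-3, named after their values were seen, and the difference between the classes was not tested. The median was -0.20, against 0.06 over all genes, and -0.39 without the 4 libraries of high cuticle genes. Without met-2 set-25 hrde-1(+R) F3 it was -0.09, and without ok1457 with tm1200 it was -0.33. Of the sperm genes 1 of 13 had a positive value here, with a median of -0.30 and sums of 51.9 to 587 RPKM in repaired and 110 to 206 RPKM in tm1200 libraries. Of the intestine markers 1 of 7 was positive, with a median of -0.06 and sums of 2860 to 5073 RPKM in repaired and 4249 to 6273 RPKM in tm1200 libraries. Of the cuticle markers 1 of 7 was positive, with a median of -0.27 and sums of 354 to 1556 RPKM in repaired and 534 to 950.2 RPKM in tm1200 libraries. The part of these lists in the muscle values was not tested.

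Against the never-mutated libraries, the repaired ones had lower means for all 10 genes. For unc-54 the means were 192 ± 115 RPKM (SD, n = 9) in repaired and 384 ± 160 (n = 5) in never-mutated libraries, and for myo-2 they were 14.6 ± 9.85 RPKM in repaired and 30.8 ± 13.3 in never-mutated libraries. The myo-2 value was the lowest of the 10, -1.21 ± 0.43 (limma adjusted p = 0.454), and that of unc-27 the nearest to 0, -0.27 ± 0.21 (0.842). None of the 10 was called, where 0.0457% of all genes were, although 5 had an unadjusted p under 0.05, namely unc-54, myo-1, myo-2, unc-15 and act-4. Over all genes 1397 of 17503 had an unadjusted p under 0.05, and the 10 genes move together. The median was -0.44, against 0.03 over all genes, of which 53.9% were positive, and it was -0.68 without the 4 libraries of high cuticle genes. The groups overlapped for each gene. The repaired and tm1200 libraries are each compared here with the same never-mutated ones, and the repaired ones with both, so these comparisons are not independent. Body wall markers outside the 10 genes summed to 417 to 872 RPKM in repaired and 513 to 864 in never-mutated libraries, and pharynx markers outside them (tnt-4, tni-4, tnc-2, myo-5 and ceh-22) to 16.7 to 72.8 RPKM in repaired and 33.7 to 64.7 in never-mutated libraries. Intestine markers summed to 2860 to 5073 RPKM in repaired and 4272 to 6043 in never-mutated libraries. Of the sperm genes 5 of 13 were positive, with a median of -0.06, and of the cuticle markers 2 of 7, with a median of -0.28. The part of these differences was not tested.

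The met-2 set-25 values had opposite signs before and after repair, and the difference between them was tested in a fit of all 19 libraries. The difference, repaired minus not repaired, was negative for all 10 genes, from -0.60 ± 0.33 for act-4 (limma adjusted p = 0.790) to -1.24 ± 0.63 for unc-54 (0.787), with a median of -0.84 against 0.02 over all genes. None was called, where 0.0229% of all genes (4) were. Over all genes the calls numbered 22 without the repaired red11 library with met-2 set-25, 11 without red11 with met-2 set-25 and tm1200, and 0 to 5 when any one of the other libraries was left out. Of the 10, 4 had an unadjusted p under 0.05: mlc-3 (-1.17 ± 0.28), mlc-2 (-0.94 ± 0.24), mlc-1 (-0.98 ± 0.37) and unc-27 (-0.76 ± 0.32), named after their values were seen, with limma adjusted p from 0.683 to 0.770. Over all genes 1134 of 17503 had an unadjusted p under 0.05. The sperm genes had a median difference of -2.04 in the same fit, with 12 of 13 negative, and the cuticle markers one of -0.86, with 2 of 7 positive, and their part in the muscle values was not tested. The median of the 10 was -0.64 without the 4 libraries of high cuticle genes, with all 10 negative.

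**Figure D5:**
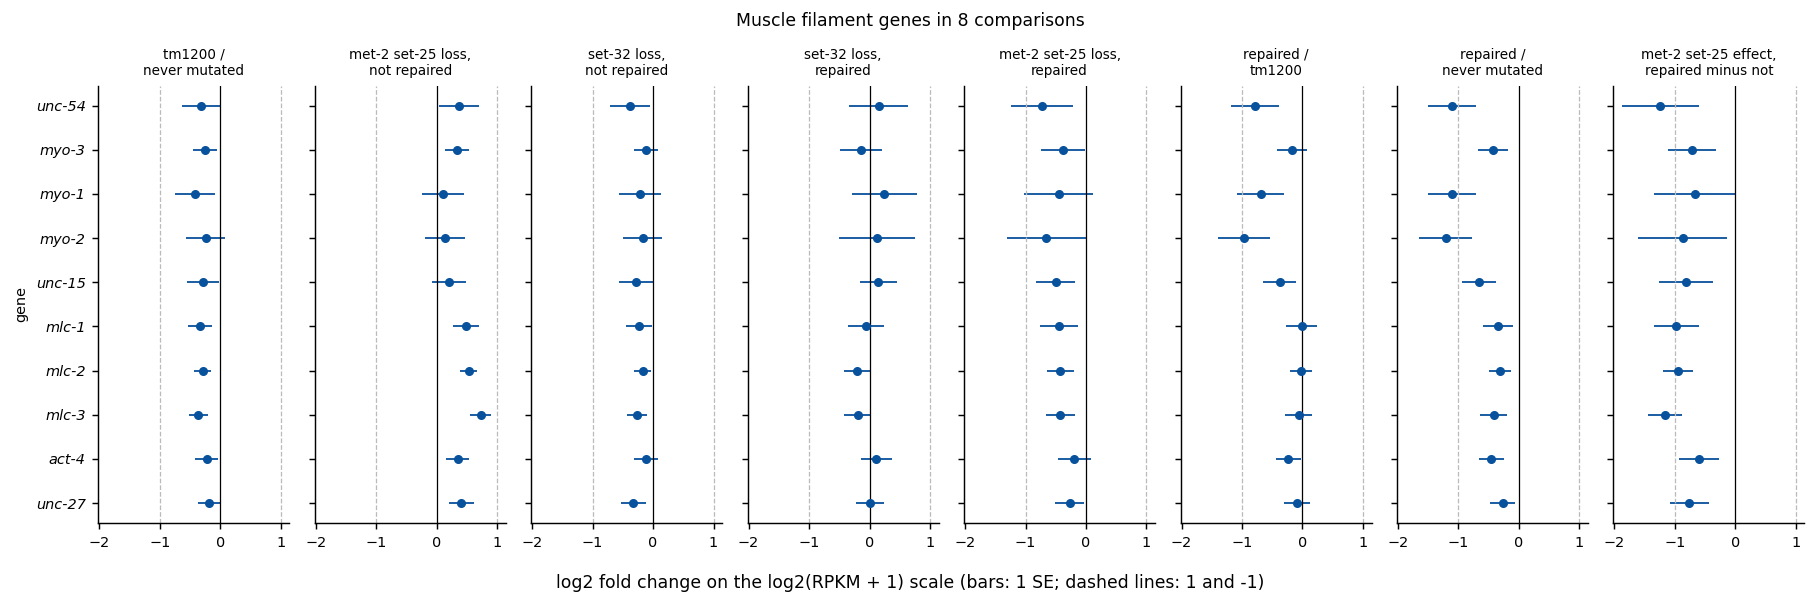
Log2 fold change (log2(RPKM + 1) scale, bars 1 SE) of each of the 10 genes in 8 comparisons, with the group named first in each heading over the one after the stroke; dashed lines stand at 1 and -1. No gene was called in any panel; the 10 points share a sign in 7 of 8 panels and lie on both sides of 0 for set-32 loss after repair.

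Among repaired libraries, 4 pairs of generations of the same genotype could be set side by side, with 1 library each and so no test. With set-32(ok1457), all 10 genes were higher at F8 than at F5, with a median ratio of 2.36; unc-54 stood at 386 RPKM at F8 and 66.1 at F5, and myo-2 at 30.4 RPKM at F8 and 2.50 at F5, a ratio of 12.2. With set-32(red11), all 10 were higher at F5 than at F4, with a median ratio of 1.72, and unc-54 stood at 355 RPKM at F5 and 159 at F4. In hrde-1(+R) alone 8 of 10 were higher at F5 than at F4, the exceptions being mlc-1 and mlc-3, with a median ratio of 1.23. With met-2 set-25, 9 of 10 were higher at F5 than at F3, unc-27 being the exception, with a median ratio of 1.29, and unc-54 was alike at 103 RPKM at F5 and 100.3 at F3 while myo-3 stood at 39.97 RPKM at F5 and 13.3 at F3. The later library was thus the higher one for most genes in each of the 4 pairs, although the libraries of a pair also differed in other markers. Sperm genes summed to 587 RPKM at F8 and 51.9 at F5 with ok1457, to 92.4 RPKM at F5 and 87.6 at F3 with met-2 set-25, to 70.5 RPKM at F5 and 161 at F4 with red11, and to 83.9 RPKM at F5 and 346 at F4 in hrde-1(+R) alone. Cuticle genes without col-19 summed to 42.8 RPKM at F8 and 93.2 at F5 with ok1457, to 321 RPKM at F5 and 21.2 at F3 with met-2 set-25, to 16.0 RPKM at F5 and 94.7 at F4 with red11, and to 82.5 RPKM at F5 and 482 at F4 in hrde-1(+R) alone. With col-19 included, the cuticle markers summed to 1030 RPKM at F8 and 354 at F5 with ok1457. They summed to 550 RPKM at F5 and 535 at F3 with met-2 set-25, and to 758 at F5 and 723 at F4 with red11. In hrde-1(+R) alone that sum was 962 RPKM at F5 and 1556.5 at F4. Sperm genes and both cuticle sums were thus higher in the later library of some pairs and lower in that of others. Intestine markers were lower in the later library only with met-2 set-25, and pharynx markers outside the 10 genes in no pair. The part of these lists was not tested.

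Other muscle genes, in lists chosen for their role, showed no call in any of the 8 comparisons. Over all genes 0% to 0.349% were called in these comparisons. Of 18 thin filament partners (actins, tropomyosin lev-11, troponins and actin-binding proteins), 17 had positive values on loss of met-2 set-25 without repair, with a median log2 fold change of 0.33. The examples of largest size were the troponin C gene tnc-2 (0.74 ± 0.45, limma adjusted p = 0.828), the troponin T gene tnt-2 (0.62 ± 0.24, 0.673) and the troponin I gene tni-4 (0.55 ± 0.20, 0.658). In the same comparison 7 of 8 thick filament partners, led by unc-98 (0.60 ± 0.33, limma adjusted p = 0.800), and 13 of 13 attachment genes, led by unc-95 (0.55 ± 0.41, 0.875), were positive, with medians of 0.25 and 0.29. In repaired against never-mutated libraries the medians were -0.35 for thin filament partners, -0.31 for thick filament partners and -0.32 for attachment genes, with 3 of 18, 1 of 8 and 2 of 13 positive. The troponin I gene tni-3 (-1.22 ± 0.46, limma adjusted p = 0.465) and the giant muscle protein genes unc-22 (-0.84 ± 0.32, 0.459) and unc-89 (-0.76 ± 0.29, 0.467) had the lowest values there. The 4 calcium handling genes had a median of -0.34, and the 5 non-muscle myosin and actin genes -0.05. The medians of the thin filament, thick filament and attachment lists thus lay on the same side of 0 as that of the 10 genes in both comparisons, with single genes on the other side apart from the attachment list on loss of met-2 set-25. The intestine list also had medians on those sides, 0.47 on loss of met-2 set-25 without repair and -0.35 in repaired against never-mutated libraries. The neuron list had a median of -0.47 in repaired against never-mutated libraries. On loss of met-2 set-25 without repair the neuron median was 0.01, with 3 of 5 positive, against 0.02 over all genes. Of 4 muscle transcription factors, ceh-22 was under 1 RPKM and pha-4 had no gene value on the windows used, so neither was tested. The other genes, hlh-1 and unc-120, gave -0.32 ± 0.43 and 0.29 ± 0.30 on loss of met-2 set-25 without repair.

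Genes whose pattern over the 19 libraries was most like that of the 10 were found among 7690 genes of at least 10 RPKM that share no window with them. By Pearson's r with the mean of the 10 genes' standardised values, the highest were lev-11 (tropomyosin, 0.962), tnt-2 (0.952), act-3 (0.944) and act-1 (0.940), followed by dim-1 (0.937), the galectin gene lec-2 (0.937), the alpha-actinin gene atn-1 (0.932) and the collagen type IV gene let-2 (0.928). The other two are the non-coding genes T04C12.30 (0.940) and T04C12.26 (0.926), of which T04C12.30 has the same windows as act-1. In so far as reads were split between act-4 and the similar actin genes act-1 and act-3, the r of act-1 and act-3 is in part built in. The median r over the 7690 genes was -0.165. The lev-11 value ran from 27.1 to 77.3 RPKM and that of act-1 from 378 to 834 RPKM. These correlations describe 19 libraries that differ in depth and share mutations, and carry no p-value.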

How the data were processed

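The deposited values are RPKM, computed by the authors in 100257 windows of 1 kb. Per the submitters' processing notes, Bowtie 0.12.7 was used. Build, strand use and the handling of repeated matches: not given in the sources used here. Values in 24 library columns were not used, and the F20 libraries were not analysed here. Windows were named by WBcel235 coordinates, leaving out chromosome V from 19500 kb, where the placing failed. Gene values were means of windows with at least 500 bp of overlap, or the best window. Genes with a mean of at least 1 RPKM were tested as log2(RPKM + 1) with limma 3.58.1 in R 4.3.3 (lmFit, eBayes with trend), with set-32 and met-2 set-25 as additive terms, fitted over libraries without repair, repaired libraries, or all 19. The fit was tested on simulated counts drawn separately for each gene, so that test does not cover genes that move together between libraries, as these do. The scale understates changes of low genes. Reads per library were estimated from the commonest step between values. All 10 members are named in the comparisons of tm1200 and of met-2 set-25 loss without repair; elsewhere the highest and lowest are, with other exceptions stated. Members and lists were chosen with earlier results of these data known. Alternatives changed the pseudocount, filter, scaling, windows, fit and libraries.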

Additional observations from a re-analysis of the deposited data

How the results depend on the processing

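The labels give the groups no shared replicate numbers. Strains that differ only in the compared mutation were set against each other with the rest of the genotype as a block in 6 comparisons, an alternative chosen after seeing the data. No member was called under this block, and the medians of the members were -0.28 with tm1200, 0.37 and -0.22 on met-2 set-25 and set-32 loss without repair, -0.44 on met-2 set-25 loss after repair, and -0.19 and -0.33 in repaired against tm1200 and against never-mutated. Under the block mlc-1 gave 0.002 in repaired against tm1200, and calls over all genes were 26 with tm1200, against 61, and 1 in repaired against never-mutated, against 8. The count of called members was 0 in each comparison under every alternative run. Of 1146 recomputed values, 1114 kept their sign and side of the threshold or moved by less than the spread, 26 changed sign and 6 ranks moved. Taking the window of largest exon overlap gave -0.055 for myo-2 on met-2 set-25 loss without repair, and leaving out windows shared with other genes gave 0.11 for mlc-1 in repaired against tm1200. Without the 4 libraries of high cuticle genes, an alternative chosen after seeing the data, as was the restriction to protein-coding genes, met-2 set-25 loss without repair gave -0.13 for myo-1, -0.14 for myo-2 and -0.082 for unc-15, set-32 loss without repair gave 0.08 for act-4, and set-32 loss after repair gave -0.21 for myo-1. Leaving out 1 library at a time gave, for met-2 set-25 loss without repair, -0.19 to 0.37 for myo-1, -0.11 to 0.40 for myo-2 and -0.008 to 0.39 for unc-15. It gave -0.49 to 0.001 for myo-2 with tm1200, -0.18 to 0.10 for mlc-1 in repaired against tm1200, -0.23 to 0.015 for act-4 on set-32 loss without repair and -0.21 to 0.75 for myo-1 on set-32 loss after repair. The causes were not tested. Per kilobase of exon unc-54 ranked 4 instead of 1 by window mean, act-4 1 instead of 2, mlc-2 2 instead of 3, unc-27 3 instead of 4, mlc-3 5 instead of 6 and mlc-1 6 instead of 5. Among all genes, calls with tm1200 were 61, against 37 with a pseudocount of 0.1 or a minimum of 5 RPKM, 19 with a minimum of 0.2 RPKM and 9 with no filter on low values. Calls in repaired against tm1200 were 44, against 19 with that pseudocount and 13 with a minimum of 5 RPKM. Calls on met-2 set-25 loss after repair were 9, against 61 with a minimum of 0.2 RPKM, 56 with no filter, 2 over protein-coding genes and 1 without shared windows. On met-2 set-25 loss without repair they were 1, against 9 with the window of largest exon overlap, 6 in 1 fit of all libraries, 3 over protein-coding genes or without shared windows, and 2 with a pseudocount of 5. Calls in repaired against never-mutated were 8, against 1 to 9 over the alternatives other than leaving out a library, those for set-32 loss after repair 11, against 6 to 14, and those for the difference of the met-2 set-25 values 4, against 0 to 5 over the same alternatives. Those for set-32 loss without repair were 0 in each of them. Leaving out 1 library gave 39 to 60 calls with tm1200 (39 or 40 without N2, red11, met-2 set-25 or met-2 set-25 with tm1200), 1 to 2 and 0 on met-2 set-25 and set-32 loss without repair, 7 to 12 on set-32 loss after repair, 6 to 17 on met-2 set-25 loss after repair, 33 to 52 and 2 to 7 in repaired against tm1200 and against never-mutated, and 0 to 22 for the difference. The highest for the difference and for met-2 set-25 loss after repair came without red11 with met-2 set-25 at F5. Depth limits the low heavy chains most: the fewest reads in any library were 18 for myo-2 and 28 for myo-1.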
